A study of Caenorhabditis elegans with 51 samples.

Results

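The genes described here encode the MCM2-7 replicative helicase and 4 other parts of the DNA replication machinery of Caenorhabditis elegans: the helicase loaders cdc-6 and cdt-1, the sliding clamp pcn-1 and the ribonucleotide reductase subunit rnr-1. They were taken by gene symbol from a table of small RNA levels, where cdt-1 was listed under its sequence name Y54E10A.15, and all 10 were found among 20202 genes. All 10 were also among the 10908 genes tested, which had a level of at least 1 RPKM in 2 or more libraries. RPKM is a read count scaled by the length of the gene model and by the size of the library.

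The series asks how endogenous siRNAs against a germline gene are held back or spread when a copy of that gene sits in a retrotransposon. The 6 libraries used here came from young adults of 1 strain, CSS342, which carries the Cer3 allele Cer3(red20), with an oma-1 fragment inside this retrotransposon, and the tagged Argonaute proteins SF-HRDE-1 and c-myc-CSR-1. Every group carried all of these alleles, and the groups differed only in the RNA sequenced, which was input small RNA, small RNA immunoprecipitated with HRDE-1, or small RNA immunoprecipitated with CSR-1 (sRIP, small RNA immunoprecipitation). Each group had 2 libraries, none of the 6 was labelled as a mock or untagged precipitation, and the labels do not say whether replicates were grown separately. The p-values therefore measure only how these samples scatter, and that scatter may be technical.

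DNA replication is licensed when the origin recognition complex, CDC-6 and CDT-1 load the ring of 6 MCM subunits onto DNA, and geminin holds CDT-1 back once licensing is over. The proliferating cells of an adult hermaphrodite lie in its germline, where replication proteins are made and loaded into oocytes. Worms make secondary siRNAs antisense to most germline transcripts: CSR-1 takes up siRNAs that match genes expressed in the germline and silences few of them, whereas HRDE-1 carries siRNAs into the nucleus in heritable silencing.

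The libraries held 2104162 to 4992358 reads by totals deduced from the deposited values, and the 10 genes had between 51 reads (pcn-1, HRDE-1 replicate 2) and 1183 reads (mcm-7, CSR-1 replicate 1) each. The reads of the 2 input libraries agreed within sampling noise over 9270 genes (chi-square divided by its degrees of freedom 0.983, chi-square p = 0.878), and their mean was counted as 1 sample, with no SD. The HRDE-1 pair differed by more than sampling noise (1.91 over 10457 genes), and the CSR-1 pair slightly (1.06 over 8138 genes). Over all genes tested, the median log2 fold change was -0.03 for HRDE-1 against input, -0.54 for CSR-1 against input and 0.60 for HRDE-1 against CSR-1. Changes of the replication genes are read against these medians. After median centring, which gives all libraries the same median level, they became 0.35, -0.08 and 0.53. After ratio centring, which moves each library until its median ratio to the input is 1, they became 0.01, -0.01 and 0.11.

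Small RNA against 9 of the 10 genes was lower in both HRDE-1 libraries than in both input libraries and higher in both CSR-1 libraries, while mcm-2 showed neither pattern. Of all genes tested, 41.7% lay in both HRDE-1 libraries below both input libraries and 37.8% above, and 33.2% lay in both CSR-1 libraries above both input libraries and 53.9% below. The mean level of the 9 in HRDE-1 was 0.434 to 0.71 times the input level, and in CSR-1 it was 1.22 to 2.21 times the input level. Together the 10 genes took 0.173% of the reads on genes in each input library. They took 0.122% and 0.112% in the HRDE-1 libraries, and 0.318% and 0.324% in the CSR-1 libraries. Reads on genes made up 50.5% and 52.4% of the input libraries, 49.0% and 51.0% of HRDE-1, and 40.1% and 43.0% of CSR-1. RPKM is scaled by the whole library, so these shares are on another scale and rise more in CSR-1. The plot of levels by library shows the same split gene by gene.

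**Figure D1:**
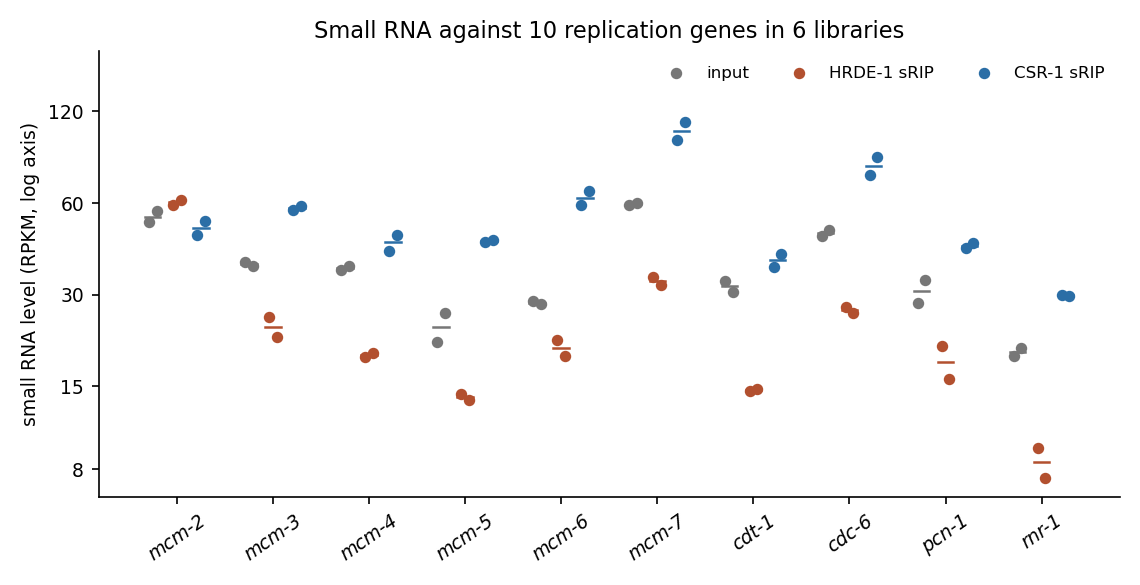
Small RNA level (RPKM, log axis) against each gene in the 2 input (grey), 2 HRDE-1 (red-brown) and 2 CSR-1 (blue) libraries, with points for libraries and short lines for group means. For 9 genes the HRDE-1 points lie lowest and the CSR-1 points highest, and for mcm-2 all 6 points lie between 47.1 and 61.5 RPKM.

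Among the helicase loaders, cdc-6, which recruits the MCM ring to origins, stood at 46.6 and 49.1 RPKM in the input, 27.4 and 26.2 in HRDE-1, and 74.4 and 84.9 in CSR-1. The level of cdt-1, which delivers the MCM ring and is destroyed in S phase, was 33.3 and 30.6 RPKM in the input, 14.5 and 14.7 in HRDE-1, and 37.1 and 40.9 in CSR-1. For both loaders the 3 groups did not overlap, but the CSR-1 and input libraries of cdt-1 lay close together. The mean CSR-1 level was 2.97 times the mean HRDE-1 level for cdc-6 and 2.67 times for cdt-1.

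Of the helicase subunits, mcm-7 had the highest level in the input, at 59.0 and 60.2 RPKM, against 34.2 and 32.4 in HRDE-1 and 96.5 and 110.6 in CSR-1. The subunit gene mcm-6 stood at 28.5 and 28.0 RPKM in the input, 21.3 and 18.8 in HRDE-1, and 59.3 and 65.7 in CSR-1, where its 2.21-fold rise in mean over the input was the largest of the 10. The level of mcm-5 was 20.9 and 26.2 RPKM in the input, 14.2 and 13.5 in HRDE-1, and 44.6 and 45.3 in CSR-1. In these 3 subunit genes the groups were fully separated, with mean CSR-1 levels 3.11 (mcm-7), 3.12 (mcm-6) and 3.25 (mcm-5) times the HRDE-1 means. The level of mcm-3 was 38.3 and 37.1 RPKM in the input, 25.3 and 21.8 in HRDE-1, and 56.8 and 58.7 in CSR-1. That of mcm-4 was 36.0 and 37.2 RPKM in the input, 18.7 and 19.3 in HRDE-1, and 41.7 and 47.3 in CSR-1. Both showed the same order without overlap, with CSR-1 over HRDE-1 ratios of 2.46 for mcm-3 and 2.34 for mcm-4.

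The subunit gene mcm-2 stood at 52.0 and 56.3 RPKM in the input, 59.1 and 61.5 in HRDE-1, and 47.1 and 52.5 in CSR-1. Both HRDE-1 libraries lay above both input libraries, the CSR-1 libraries overlapped the input, and the CSR-1 mean was 0.826 times the HRDE-1 mean. These levels rest on 334 to 811 reads per library. In the Ensembl annotation of WBcel235, mcm-2 lies on the minus strand of chromosome II from 12001509 to 12006625. The gene was singled out after its values were seen.

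The sliding clamp gene pcn-1, which encodes the worm PCNA that tethers polymerases to DNA, stood at 28.1 and 33.6 RPKM in the input, 20.3 and 15.8 in HRDE-1, and 42.6 and 44.2 in CSR-1. The level of rnr-1, the large subunit of the enzyme that makes deoxyribonucleotides, was 18.9 and 20.03 RPKM in the input, 9.36 and 7.50 in HRDE-1, and 29.9 and 29.7 in CSR-1. Neither gene's groups overlapped, and rnr-1 had both the lowest levels of the 10 and the largest mean CSR-1 over HRDE-1 ratio, 3.54, against 2.40 for pcn-1.

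The order of the 10 genes by mean level changed between the groups. In the input it ran mcm-7, mcm-2, cdc-6, mcm-3, mcm-4, cdt-1, pcn-1, mcm-6, mcm-5 and rnr-1, where, among genes next to each other in the order, the libraries of mcm-3 and mcm-4, of cdt-1 and pcn-1 and of pcn-1 and mcm-6 overlapped. In HRDE-1, mcm-2 came first with both libraries above those of mcm-7, followed by cdc-6, mcm-3, mcm-6, mcm-4, pcn-1, cdt-1, mcm-5 and rnr-1, with overlap among mcm-6, mcm-4 and pcn-1. In CSR-1, mcm-7, cdc-6, mcm-6 and mcm-3 led, then came mcm-2, and mcm-5, mcm-4, pcn-1, cdt-1 and rnr-1 followed, with overlap of mcm-4 with each of mcm-2, mcm-5 and pcn-1. The median level of the 10 genes was 34.3 RPKM in the input, 19.5 in HRDE-1 and 47.4 in CSR-1, beside 15.7, 11.8 and 11.1 RPKM over all genes tested.

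HRDE-1 against input asks which small RNAs were enriched or depleted with the nuclear Argonaute. A gene was called with an adjusted p (limma, Benjamini-Hochberg over all genes tested) under 0.05 and a log2 fold change of at least 1 in size, on the scale of log2(RPKM + 1), which understates changes at low levels. Small RNA against rnr-1 fell by 1.12 ± 0.17 on the log2 scale (SE, adjusted p = 0.0111) and that against cdt-1 fell by 1.08 ± 0.12 (adjusted p = 0.00937), and these were the 2 genes called lower. None of the 10 was called higher. Over all genes tested, 10.3% were called lower and 7.15% higher. The other 7 genes apart from mcm-2 passed the p threshold without the fold minimum, with log2 fold changes of -0.91 ± 0.12 for mcm-4 (adjusted p = 0.00981) to -0.48 ± 0.13 for mcm-6 (adjusted p = 0.041). Thus 9 of 10 were lower by p alone, as were 28.1% of all genes tested. That count was 5 after median centring, where mcm-3, mcm-5, mcm-6 and pcn-1 no longer passed. Genes called lower over the whole table also fell there, from 1124 to 333 of 10908. The 9 genes no longer passed when either HRDE-1 or either CSR-1 library was left out with the input as 1 sample. In those fits calls over the whole table fell too, so the loss is not particular to these genes. The median log2 fold change was -0.78 over the 10 genes and -0.03 over all genes tested. For mcm-2 the log2 fold change was 0.15 ± 0.12 (95% interval -0.16 to 0.46, adjusted p = 0.334), and 0.54 (adjusted p = 0.021) after median centring. Both calls were lost after median centring (log2 fold changes of -0.69 for cdt-1 and -0.74 for rnr-1), and when either HRDE-1 or either CSR-1 library was left out of the fit with the input as 1 sample (adjusted p of 0.05001 to 0.0802 for cdt-1 and 0.0555 to 0.0727 for rnr-1).

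CSR-1 against input asks the same for CSR-1, and it shares the input libraries with the comparison above. Small RNA against mcm-6 rose by 1.12 ± 0.13 on the log2 scale (adjusted p = 0.00221) and was the 1 gene of the 10 called higher, against 7.13% of all genes tested. It was called under all 17 alternatives, of which some, such as no fold minimum, could not lose the call. None was called lower, against 36.8% of all genes tested. By p alone 6 of 10 were higher, beside 23.7% of all genes tested. That count was 9 after median centring and 10 after ratio centring (mcm-2 included, adjusted p = 0.0295). Without rescaling it was 9 with 2 input samples and 8 when the replicate numbers of the titles were also fitted. Fewer than 6 passed without either CSR-1 library with the input as 1 sample. Besides mcm-6, the other 5 of the 6 had log2 fold changes of 0.90 ± 0.11 for mcm-5 (adjusted p = 0.0023), 0.78 ± 0.13 for mcm-7 (adjusted p = 0.00554), 0.72 ± 0.12 for cdc-6 (adjusted p = 0.00655), 0.60 ± 0.13 for mcm-3 (adjusted p = 0.0125) and 0.59 ± 0.17 for rnr-1 (adjusted p = 0.0285). Those of pcn-1 (0.48 ± 0.17, adjusted p = 0.0543), cdt-1 (0.28 ± 0.12, adjusted p = 0.0896) and mcm-4 (0.27 ± 0.12, adjusted p = 0.105) did not pass. For mcm-2 the log2 fold change was -0.12 ± 0.12 (95% interval -0.43 to 0.18, adjusted p = 0.391), but 0.34 after median centring and 0.41 after ratio centring. The count called higher depends on the scaling: it was 6 of 10 after median centring and 7 of 10 after ratio centring. Of the 10908 genes tested, 2540 were called higher after median centring and 2785 after ratio centring, so the whole table moved too. Counts over all genes by p alone were not made under these scalings.

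HRDE-1 against CSR-1 compares the 2 precipitations directly, without the input. Small RNA against 9 of the 10 genes was called lower in HRDE-1 than in CSR-1, against 26.6% of all genes tested, and none was called higher, against 43.7%. By p alone the counts were 9 lower and 1 higher (mcm-2), beside 36.3% and 50.8% of all genes tested. The libraries of these 9 did not overlap, as for 39.5% of all genes tested with HRDE-1 below CSR-1, beside 53.7% with HRDE-1 above. The level of rnr-1 fell most, with a log2 fold change of -1.71 ± 0.14 (adjusted p = 0.000235), followed by mcm-5, which fell by 1.63 ± 0.09 (adjusted p = 8.9e-05), and mcm-7, which fell by 1.61 ± 0.11 (adjusted p = 0.000136). The smallest change was that of mcm-4, at -1.18 ± 0.10 (adjusted p = 0.000292). These 9 genes were called lower under all 17 alternatives, with log2 fold changes from -2.21 to -1.06. Alternatives that changed only the input, the replicate block or the fold minimum left these fold changes as they were, so they test them little. As the libraries of the 9 genes did not overlap, each numbered replicate necessarily had more small RNA against them in CSR-1. The median log2 ratio of CSR-1 to HRDE-1 over the 10 genes was 1.35 in replicate 1 and 1.54 in replicate 2.

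For mcm-2 the log2 fold change of HRDE-1 against CSR-1 was 0.27 ± 0.10 (95% interval 0.02 to 0.52, adjusted p = 0.0441), below the fold minimum, and it was -0.22 (adjusted p = 0.101) after ratio centring. It stood at percentile 45.8 of all genes tested in that comparison, whereas the other 9 genes stood between percentiles 9.79 and 22.6. In HRDE-1 against input mcm-2 stood at percentile 57.6 and the others between 7.29 and 33.5, and in CSR-1 against input at percentile 58.8 and the others between 68.6 and 95.3.

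**Figure D2:**
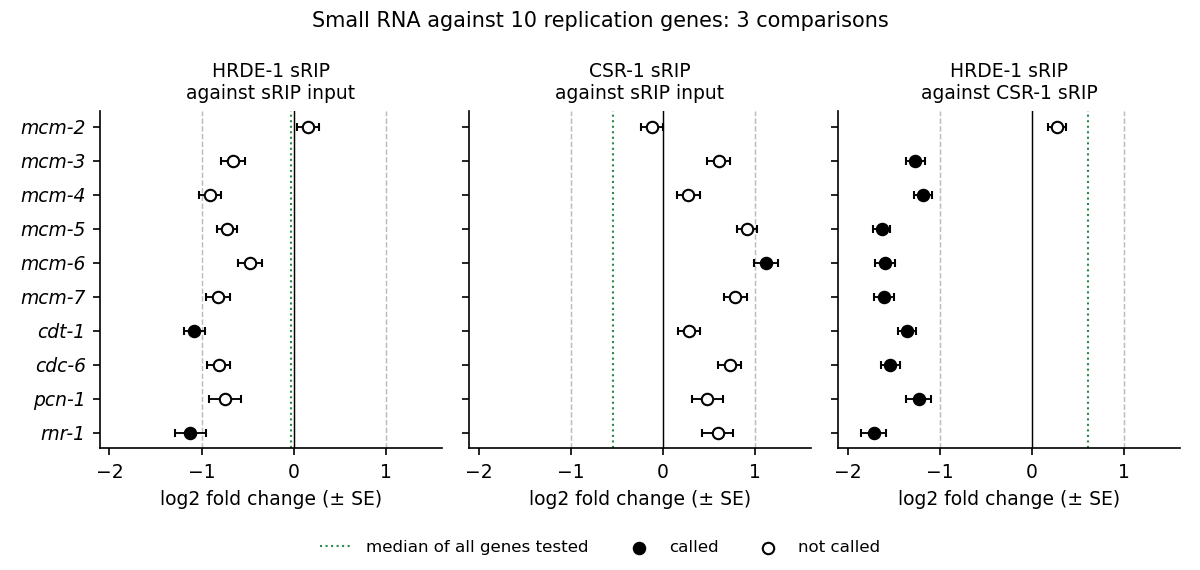
Log2 fold change (± SE, limma on log2(RPKM + 1)) of each gene in the 3 comparisons, with called genes filled, dashed lines at the fold minimum and a dotted line at the median of all genes tested. Filled points are cdt-1 and rnr-1 (left), mcm-6 (middle) and the 9 genes other than mcm-2 (right), where mcm-2 lies at 0.27, or at -0.22 after ratio centring.

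The 6 subunits act as 1 ring in which each is present once, which sets no expectation for the small RNA against each gene. Shares within the 6 genes, as within any set, give a comparison inside each library that no scaling between libraries can move. The share of mcm-2 in the summed RPKM of the 6 subunit genes was 22.2% and 23.0% in the input, 34.2% and 36.8% in HRDE-1, and 13.6% and 13.8% in CSR-1. The 3 groups of mcm-2 shares did not overlap. The share of mcm-7 was 25.1% and 24.6% in the input, 19.8% and 19.3% in HRDE-1, and 27.9% and 29.1% in CSR-1, the opposite order and also without overlap. As shares of 1 sum, these values move together, and a larger mcm-2 share lowers the others. Against the median of the other 5 subunit genes in the same library, mcm-7 stood at 1.64 and 1.62 times in the input and 1.61 and 1.67 times in HRDE-1, which overlapped, and at 2.05 and 2.104 times in CSR-1. The share of mcm-6 was 12.1% and 11.4% in the input and 12.3% and 11.3% in HRDE-1, which overlapped, and 17.1% and 17.3% in CSR-1, above both. The share of mcm-4 was highest in the input, at 15.3% and 15.2%, and stood at 10.8% and 11.6% in HRDE-1 and 12.1% and 12.4% in CSR-1. That of mcm-3 overlapped between input and CSR-1 and lay lower in HRDE-1, between 13.0% and 14.6%. By the ratio to the median of the other 5 its order was the opposite, at 1.06 and 0.998 in the input against 1.19 and 1.13 in HRDE-1. The share of mcm-5 was 8.91% and 10.7% in the input, 8.199% and 8.09% in HRDE-1, and 12.9% and 11.9% in CSR-1. By that ratio mcm-2 stood at 1.44 and 1.52 times in the input, 2.77 and 3.18 times in HRDE-1, and 0.828 and 0.895 times in CSR-1. These shares are a description, with no test, since mcm-2 was set apart on these same values.

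**Figure D3:**
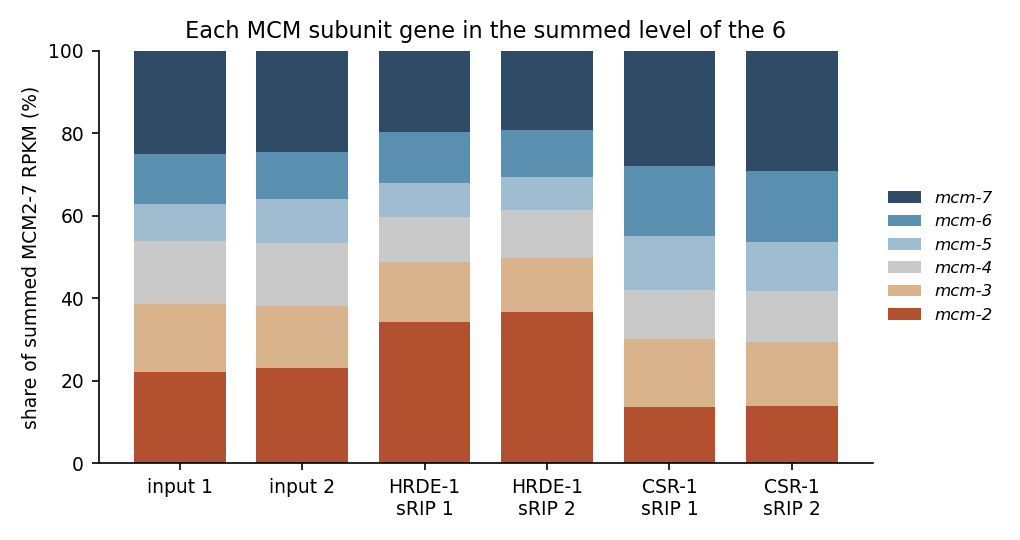
Share (%) of each MCM subunit gene in the summed RPKM of the 6 subunit genes, 1 stacked bar per library. The mcm-2 segment at the bottom takes 22.2% and 23.0% of the input bars, 34.2% and 36.8% of the HRDE-1 bars and 13.6% and 13.8% of the CSR-1 bars.

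Some of the genes overlap others in the WBcel235 annotation, and the strand counted is not given in the sources used here, so reads from overlapping stretches could not be assigned. The mcm-4 gene shares 15 bases on opposite strands with ekl-7, which had a mean level of 119.2 RPKM. The mcm-6 gene shares 1278 bases with srxa-10, whose mean level was 0.0348 RPKM, and the overlaps of mcm-2, mcm-3 and mcm-7 were of 16 to 73 bases with genes at 0.547 RPKM or less. The rnr-1 gene contains the snoRNA gene T23G5.7, 125 bases on the same strand, for which the table holds no level. The MCM subunits are related in sequence, and the treatment of reads that match several genes is also not given.

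Other replication genes were examined as a list of 45, of which 43 were matched to the table (24 by symbol and 19 by sequence name) and all 43 were tested. In HRDE-1 against CSR-1, 27 of the 43 were called lower and 2 higher, beside 26.6% and 43.7% of all genes tested. The median log2 fold change was -1.33, beside -1.45 over the 10 genes and 0.60 over all genes tested. In HRDE-1 against input, 3 were called lower and none higher (median -0.57), beside 10.3% and 7.15% of all genes tested. By p alone 21 were lower and 3 higher, beside 28.1% and 15.9%. In CSR-1 against input, 8 were called higher and none lower (median 0.75), beside 7.13% and 36.8% of all genes tested. By p alone 26 were higher and 4 lower, beside 23.7% and 45.4%. The 8 became 26 after either median or ratio centring, and fewer without CSR-1 replicate 2. Of the 10908 genes tested, 2540 were called higher after median centring and 2785 after ratio centring.

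By role, and beside 26.6% of all genes tested called lower in HRDE-1 than in CSR-1, the partners that join the MCM ring in the active helicase (CDC45 and the GINS complex) included 4 of 5 genes called lower. The GINS subunit gene sld-5 stood at 7.92 and 15.1 RPKM in the input, 4.14 and 5.32 in HRDE-1, and 39.5 and 38.1 in CSR-1. It fell by 2.80 ± 0.15 on the log2 scale (adjusted p = 8.43e-05) in HRDE-1 against CSR-1, the largest change of the list, though with 12 and 14 reads in the HRDE-1 libraries. Further GINS genes were called lower, psf-2 by a log2 fold change of -2.03 and psf-1 by -1.87. Among DNA polymerase and primase genes 7 of 8 were called lower, with pold-2, a subunit of polymerase delta, at -1.80. All 3 genes of Okazaki fragment processing were called lower, led by the DNA ligase gene lig-1 at -1.95. Of the clamp loader, which places the PCNA ring on DNA, 2 of 4 genes were called lower, with rfc-3 at -1.79. Of the origin firing genes 3 of 6 were called lower, with the kinase gene cdc-7 at -1.72, and the log2 fold changes of the 6 reached up to 0.86. The remaining roles had 1 of 3 genes called lower for single-strand binding, 1 of 2 for topoisomerases and 2 of 3 for nucleotide supply.

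Origin recognition and licensing control genes had calls on both sides. So did all genes tested, of which 26.6% were called lower in HRDE-1 than in CSR-1 and 43.7% higher. Log2 fold changes in that comparison also lay on both sides of 0 for origin firing (up to 0.86) and single-strand binding (up to 0.17), where none was called higher. In HRDE-1 against CSR-1, 2 of 5 origin recognition genes were called lower, among them orc-1 at -1.86, and 1 was called higher. That gene, orc-5, stood at 107.8 and 104.4 RPKM in the input, 151.9 and 168.9 in HRDE-1, and 54.8 and 57.2 in CSR-1, so its groups were separated in the order opposite to the helicase loaders. It rose by 1.50 ± 0.10 on the log2 scale (adjusted p = 0.000159). The geminin gene gmn-1, whose product inhibits CDT-1, stood at 50.0 and 51.6 RPKM in the input, 67.7 and 72.0 in HRDE-1, and 31.7 and 30.8 in CSR-1. It rose by 1.13 ± 0.09 (adjusted p = 0.0002), but by 0.64, below the fold minimum, after ratio centring. The levels of gmn-1 thus lay in the order opposite to that of 9 of the 10 genes, among them its target cdt-1. The order of gmn-1 was that of orc-5, and 38 of the 43 genes lay higher in both CSR-1 libraries than in both HRDE-1 libraries. The opposite order is therefore not particular to gmn-1 and cdt-1, and a link between them was not tested. Of all genes tested, 37.8% lay above the input in both HRDE-1 libraries and 53.9% below it in both CSR-1 libraries. Of the 4 licensing control genes, 2 were called lower.

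In the comparisons with the input, the genes of the list called lower in HRDE-1 were psf-2 (log2 fold change -1.20, adjusted p = 0.00937), sld-5 (-1.13, adjusted p = 0.0125) and cdt-2 (-1.07, adjusted p = 0.0124), whose product directs CDT-1 to degradation. All 3 calls were lost after median centring (-0.81 for psf-2, -0.75 for sld-5 and -0.69 for cdt-2), and when either HRDE-1 or either CSR-1 library was left out with the input as 1 sample (adjusted p of 0.05001 to 0.0851). Genes called lower over the whole table fell as well, from 1124 to 333 after median centring, and also in those fits with a library left out. The call of sld-5 was also lost without input replicate 2 (-0.65). The genes called higher in CSR-1 were sld-5 (1.67), the thymidylate synthase gene tyms-1 (1.38), pold-2 (1.25), lig-1 (1.11), the polymerase epsilon subunit gene pole-2 (1.07), the polymerase alpha gene pola-1 (1.04), the nuclease and helicase gene dna-2 (1.03) and rfc-3 (1.01). Their adjusted p lay between 0.00171 and 0.0096. The input libraries held only 13 and 9 reads for tyms-1 and 15 and 22 for sld-5. The input libraries enter both of these comparisons, so sld-5 being in both sets rests partly on the same values.

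**Figure D4:**
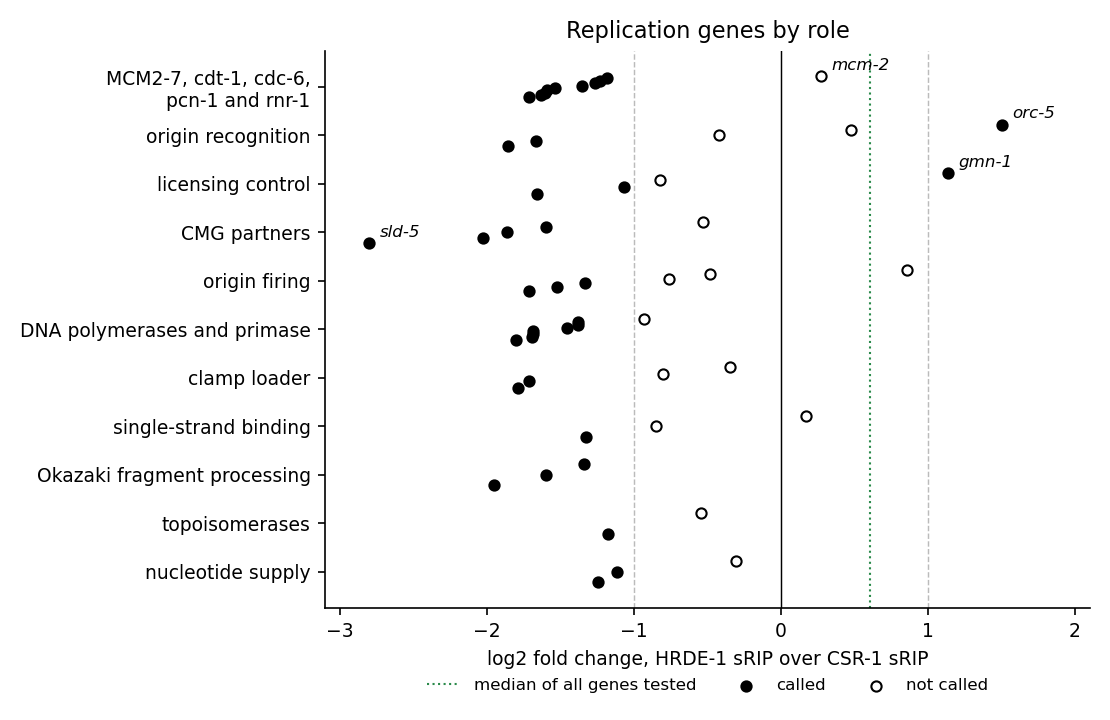
Log2 fold change of HRDE-1 over CSR-1 for the 10 genes (top row) and 43 other replication genes by role, with called genes filled, dashed lines at the fold minimum and a dotted line at the median of all genes tested. The 2 called genes on the right are orc-5 and gmn-1 (gmn-1 is not called after ratio centring), and sld-5 lies farthest to the left at -2.80.

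The 5 tested genes outside both lists whose levels over the 6 libraries came closest to the median of the 10 genes were K10E9.1, F25B3.6 (rtfo-1 in RefSeq), T10E9.2, F58G11.6 (ccz-1 in RefSeq) and npp-22, with root mean square differences of 0.0319 to 0.0694 on the log2(RPKM + 1) scale. Of the 10 genes themselves, mcm-4 lay nearest to that median profile (0.0935) and mcm-2 farthest (0.966), followed by rnr-1 (0.904) and mcm-7 (0.871). The distances of rnr-1 and mcm-7 include their low and high overall levels.

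Summed levels of small RNA against markers of whole tissues differed between the same groups. Summed over 12 germline and maternal marker genes, the level was 757 and 801 RPKM in the input, 392 and 382 in HRDE-1, and 1150 and 1252 in CSR-1, with none of the 12 at 0 in any library. Over 12 sperm markers it was 66.1 and 59.5 RPKM in the input, 66.3 and 67.5 in HRDE-1, and 5.69 and 6.45 in CSR-1, with 2 markers at 0 in each input library, 4 in each HRDE-1 library, and 7 and 9 in the CSR-1 libraries. Over 12 somatic markers it was 76.5 and 79.7 RPKM in the input, 141.7 and 131 in HRDE-1, and 53.0 and 51.9 in CSR-1, with 3 and 4 markers at 0 in the input libraries, 6 and 7 in HRDE-1, and 3 and 4 in CSR-1. The somatic sum was thus higher in HRDE-1 although more of its markers stood at 0 there. Such a sum can rest on a few markers and does not give the direction of each, and single markers were not compared. The order of the germline markers' sums was that of 9 of the 10 replication genes, and the part of these markers in the result was not tested. A level in such whole-animal samples does not tell fewer cells of a type from less small RNA per cell, and all 3 groups came from the same strain and stage.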

How the data were processed

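The values deposited by the authors are RPKM per gene model for 6 small RNA libraries. Libraries were made by linker ligation after phosphatase and kinase treatment, per the labels' protocols, and Bowtie 1.2.3 was used, per the submitters' processing notes. For its settings, the genome build, the strand counted and reads with several matches, the sources used here state nothing, so reads shared between related genes may be counted more than once or lost. A second table, whose 45 value columns no label ties to a sample, was not used here.

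Library totals and reads per gene were deduced from the RPKM steps (80607 of 80624 values above 0 were whole reads within a tolerance of 1e-06 of the value). They served the comparison of replicates and the read numbers only. Of rows that share a symbol, the row with the highest mean was kept. The moderated linear models of limma 3.58.1 (R 4.3.3) used log2(RPKM + 1), a trended prior and 1 mean per group, over 5 samples with 2 residual degrees of freedom. The lone input sample was assumed to vary like the others. Scripts were tested on simulated data. The 10 genes and the lists were chosen with earlier results of these data known. The text names all 10 genes, the called genes of the second list with the largest changes (at most 8 in each direction), and the 5 genes nearest in profile.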

Additional observations from a re-analysis of the deposited data

How the results depend on the processing

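Under 17 alternatives, 471 of 510 results for single genes among the 10 kept their direction and side of the call threshold, 25 gained a call, 11 lost one and 3 changed sign. The 3 were mcm-2 in CSR-1 against input (0.34 after median centring, 0.41 after ratio centring) and mcm-2 in HRDE-1 against CSR-1 (-0.22 after ratio centring). In HRDE-1 against input the 2 genes called lower became 0 after median centring and 9 with no fold minimum, and leaving out 1 library gave 0 to 2. That count was 0 without HRDE-1 replicate 1, HRDE-1 replicate 2, CSR-1 replicate 1 or CSR-1 replicate 2, fits with 1 residual degree of freedom. In a fit with 2 input samples, chosen after seeing the data, it was 1 without HRDE-1 replicate 2. In CSR-1 against input the 1 gene called higher became 6 after median centring, 7 after ratio centring and 6 with no fold minimum, and leaving out 1 library gave 1 to 2 (2 without input replicate 2, which added mcm-5). In HRDE-1 against CSR-1 the 0 genes called higher became 1 with no fold minimum, and the 9 called lower were 9 under each of the 17. With a pseudocount of 0.1, no filter on low values or 2 input samples, no call among the 10 changed. Not every alternative could move every result. Those that changed only the input left the fold changes of HRDE-1 against CSR-1 as they were, and removing the fold minimum could lose no call. The 471 unchanged results include such cases.

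The replicate numbers of the titles were tried as a replicate block with 2 input samples, which left 2 genes lower in HRDE-1 against input, 1 higher in CSR-1 against input and 9 lower in HRDE-1 against CSR-1. Deviations of same-numbered libraries correlated at 0.00434 to 0.0333 across 10908 genes. The input pair differed only by sampling noise and the CSR-1 pair by little more. Such correlations would lie near 0 with or without a pairing, so they cannot decide whether the numbers pair libraries. The library codes in the titles share a prefix among libraries numbered 1 and another among those numbered 2, and its meaning is not stated.

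Over all genes tested, HRDE-1 against input had 780 higher and 1124 lower calls, but 2254 and 333 after median centring, 491 higher with no filter, 1736 and 3062 with no fold minimum, 189 in both directions without HRDE-1 replicate 1 (92 and 97), and 168 without HRDE-1 replicate 2 (67 of them lower). Without either CSR-1 library limma called 0 and 0, with 5512 and 5508 genes at an unadjusted p under 0.05. CSR-1 against input had 778 higher and 4019 lower calls, but 2540 and 2969 after median centring, 2785 and 2810 after ratio centring, 2587 higher with no fold minimum, and 491 higher without CSR-1 replicate 2. HRDE-1 against CSR-1 had 4767 higher and 2901 lower calls, but 3755 and 3835 after ratio centring. With 2 libraries a group, an exact permutation test of 1 gene cannot go below a two-sided p of 0.333. Depth limits low genes most, such as sld-5 and tyms-1.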
